A study of Mus musculus with 2 samples.

Results

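Oxidative phosphorylation is the chain of reactions in the inner mitochondrial membrane that makes most of the ATP of an aerobic cell. Complexes I and II feed electrons into the chain, complexes III and IV pass them on to oxygen, and the ATP synthase, complex V, uses the proton gradient that results. Most subunits are made in the cytosol from nuclear genes, and a few are encoded by the mitochondrial genome. UPF1 is an RNA helicase of nonsense-mediated decay, the pathway that removes transcripts whose translation ends prematurely, and it also binds many ordinary mRNAs. The nuclear genes of the complexes were taken here by symbol, as the protein-coding RefSeq loci of GRCm38 whose names begin with Nduf, Uqcr, Cox4 to Cox8 or Atp5, or are Sdha, Sdhb, Sdhc or Sdhd. The rule gave 96 of 21900 protein-coding loci. Of the 96, 84 encode subunits, 8 are complex I assembly factors (Ndufaf1 to Ndufaf8), 2 are copies of Ndufb4 and 2 are paralogs of complex IV subunits (Cox7a2l and Ndufa4l2). The mitochondrially encoded subunits were not analysed here.

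The data came from enhanced crosslinking and immunoprecipitation (eCLIP), in which a protein is pulled down with the RNA crosslinked to it and the RNA is compared with an input library made without the pull-down. There was 1 UPF1 immunoprecipitate and 1 input, both from neural progenitor cells of mouse cortex that carried loxP-flanked Upf2 (Upf2fl/fl), and both labelled MOCK, a word the labels leave unexplained. UPF2 is a partner of UPF1 in decay, and the sources used here do not say whether the floxed allele was still intact. With no replicate of either library, no p-value across genes was computed, and intervals cover counting error only. The deposited list gives 123349 stranded clusters, stretches of RNA with piled-up immunoprecipitate reads, each with the authors' own log2 fold and −log10 p. The list has no header, and the fold was read as immunoprecipitate over input, the usual direction in eCLIP. A cluster is called enriched below when its log2 fold and its −log10 p were both at least 3, about 8 times the input or more. Read counts were reconstructed from both values, so that a fold of 0.56, the commonest, stands for 3 immunoprecipitate reads against 1 input read. An input of 1 may also stand for no read. The number of reads on an RNA depends on its abundance as well as on binding, and in bulk libraries fewer cells of a type and less RNA per cell cannot be told apart. As to the cell type, all 10 progenitor markers had a cluster, 6 of them enriched, as had all 3 markers of cycling cells, none of them enriched. None of 5 microglial, none of 3 blood and 1 of 6 vessel and fibroblast markers had a cluster, the last without enrichment. For comparison, 44.3% of all protein-coding loci had a cluster and 15.1% had an enriched one. All 5 astrocyte markers and 4 of 5 markers of the oligodendrocyte lineage had an enriched cluster, as did 2 of 7 neuronal ones. The part of such cells in the values below was not tested.

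UPF1 clusters were found on 49 of the 96 genes (51.0%), against 44.3% of all protein-coding loci. These 49 held 145 clusters, with a median of 2 and at most 11 per gene, where the median over all protein-coding genes with a cluster was 6. An enriched cluster was present in 8 of the 49 genes, 16.3% (Wilson 95% interval 8.51 to 29.0). Over all protein-coding genes with a cluster the share was 34.0%, 3302 of 9706. Counted over all loci, with or without a cluster, it was 8.33% of the 96 genes, against 15.1% of all protein-coding loci. The 8 genes were Atp5a1, Sdhc, Ndufa10, Sdha, Sdhd, Atp5d, Cox7a2l and Cox8a. Their intervals all share the range from 3.91 to 6.49, so their order by fold is not resolved. The same 8 were called when the log2 fold had to reach only 2 with the −log10 p still at least 3, where 36.2% of all protein-coding genes with a cluster were called. No other cluster of the members had a −log10 p above 2.38, so a lower fold threshold could add none. The median of the highest log2 fold in a gene was 0.98 over the 49 genes (quartiles 0.56 and 1.98), against 2.56 over all protein-coding genes with a cluster (quartiles 1.30 and 3.98). A highest fold is taken over all clusters of a gene, and the members had fewer clusters each. Cluster by cluster the values were closer, with a median log2 fold of 0.56, against 0.71 over all clusters on protein-coding loci. Of the 145 clusters of the members 13 were enriched (8.97%), against 11.8% of all clusters on protein-coding loci.

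The members had few clusters each, and the share was read against genes like them in that respect. When each of the 49 was given the share of enriched genes found among all protein-coding genes with the same number of clusters, the average was 14.1%, against the 16.3% observed. Of the 34 members with 1 to 3 clusters, 4 had an enriched one, and over all protein-coding genes with 1 to 3 clusters the share was 7.02%. Of the 15 members with 4 or more clusters, 4 had an enriched one, where the share over all such genes was 47.7%. With shares taken from genes of like locus length, the average was 30.2%. Among members with a locus under 10000 nt, 4 of 28 had an enriched cluster, where the share over all such protein-coding genes was 26.5%. The number of clusters is itself a readout of the immunoprecipitate, so this is a description of where the members fall and not a correction. No cluster in the whole list was called enriched with fewer than 24 immunoprecipitate reads.

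**Figure D1:**
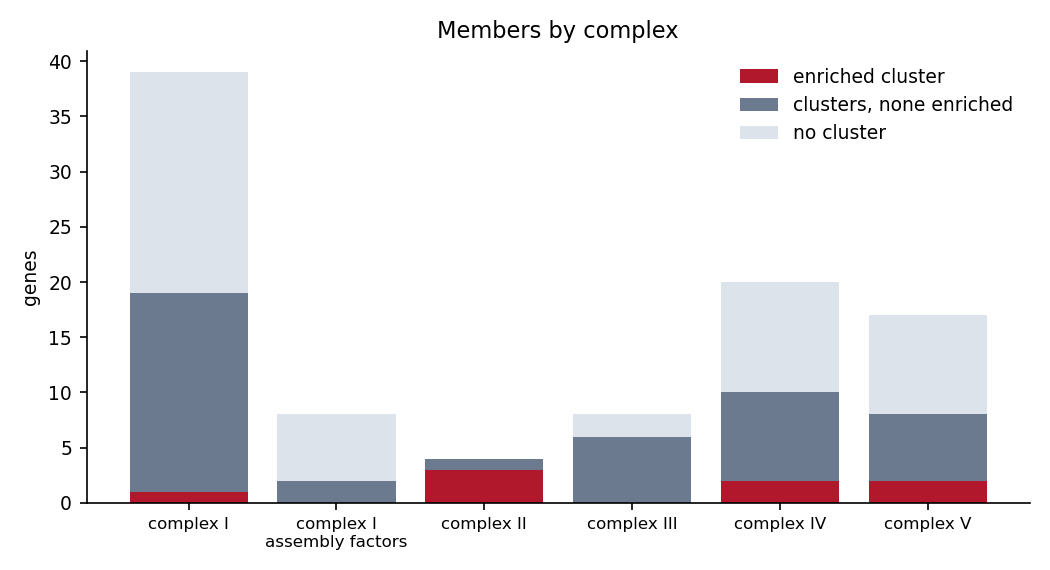
Number of genes (y axis) in each complex (x axis), divided into genes with an enriched UPF1 cluster (red), genes with clusters of which none was enriched (grey) and genes without a cluster (pale). Complex II has 3 of 4 genes in red, while complex I has 1 of 39. Over all protein-coding loci, with or without a cluster, 15.1% had an enriched cluster.

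Complex II, succinate dehydrogenase, links the citric acid cycle to the respiratory chain, and all 4 of its genes had clusters. Of these, 3 had an enriched cluster, which left a wide interval on the share (30.1 to 95.4%). It includes the 34.0% found over all protein-coding genes with a cluster. Together the 3 genes held 6 of the 13 enriched clusters of the members. Sdhc and Sdhd encode the membrane anchors that hold the heme and the quinone site. In Sdhc (chromosome 1, 171129157 to 171150640, minus strand) the cluster at 171129477 to 171129707 held 105 reads in the immunoprecipitate against 1 in the input. Its log2 fold was 5.69 (95% interval 3.18 to 11.01). Nearer the end of the gene, 37 reads against 1 gave 4.19 (interval 1.62 to 9.53). The remaining pair of Sdhc clusters lay farther inside the locus, at 2725 and 14455 nt from its 3′ end, with folds of 0.56 and -1.02.

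Sdhd (chromosome 9, 50596340 to 50603849, minus strand) had 3 clusters, and all 3 were enriched. They touch each other and form 1 stretch of 431 nt between 50596521 and 50596951. Their log2 folds from the 3′ end inwards were 4.15, 3.26 and 3.91, from 72, 39 and 61 reads against 2 each. The middle fold was the lowest of any enriched cluster of the members, and its interval ran from 1.31 to 6.36.

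Sdha, the flavoprotein that oxidises succinate, had 1 of 6 clusters enriched (chromosome 13, 74322693 to 74322831), where 56 reads against 1 gave a log2 fold of 4.78 (interval 2.25 to 10.11). In the same last 1000 nt lay 3 clusters that were not called, with folds of 3.30, 3.06 and 2.56 from 20, 17 and 12 reads against 1. The folds of 3.30 and 3.06 passed the fold threshold, and both clusters missed the other threshold, with −log10 p of 2.38 and 1.96. Sdhb, the iron-sulfur subunit that takes electrons from Sdha, had no enriched cluster. It had 3 clusters, all between 6451 and 7825 nt from the 3′ end, with folds of 0.98, 0.78 and 0.30 and no more than 7 reads. The interval around its highest fold, -2.36 to 6.60, overlaps those of the other 3 genes, so the folds themselves do not tell Sdhb apart at this depth.

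**Figure D2:**
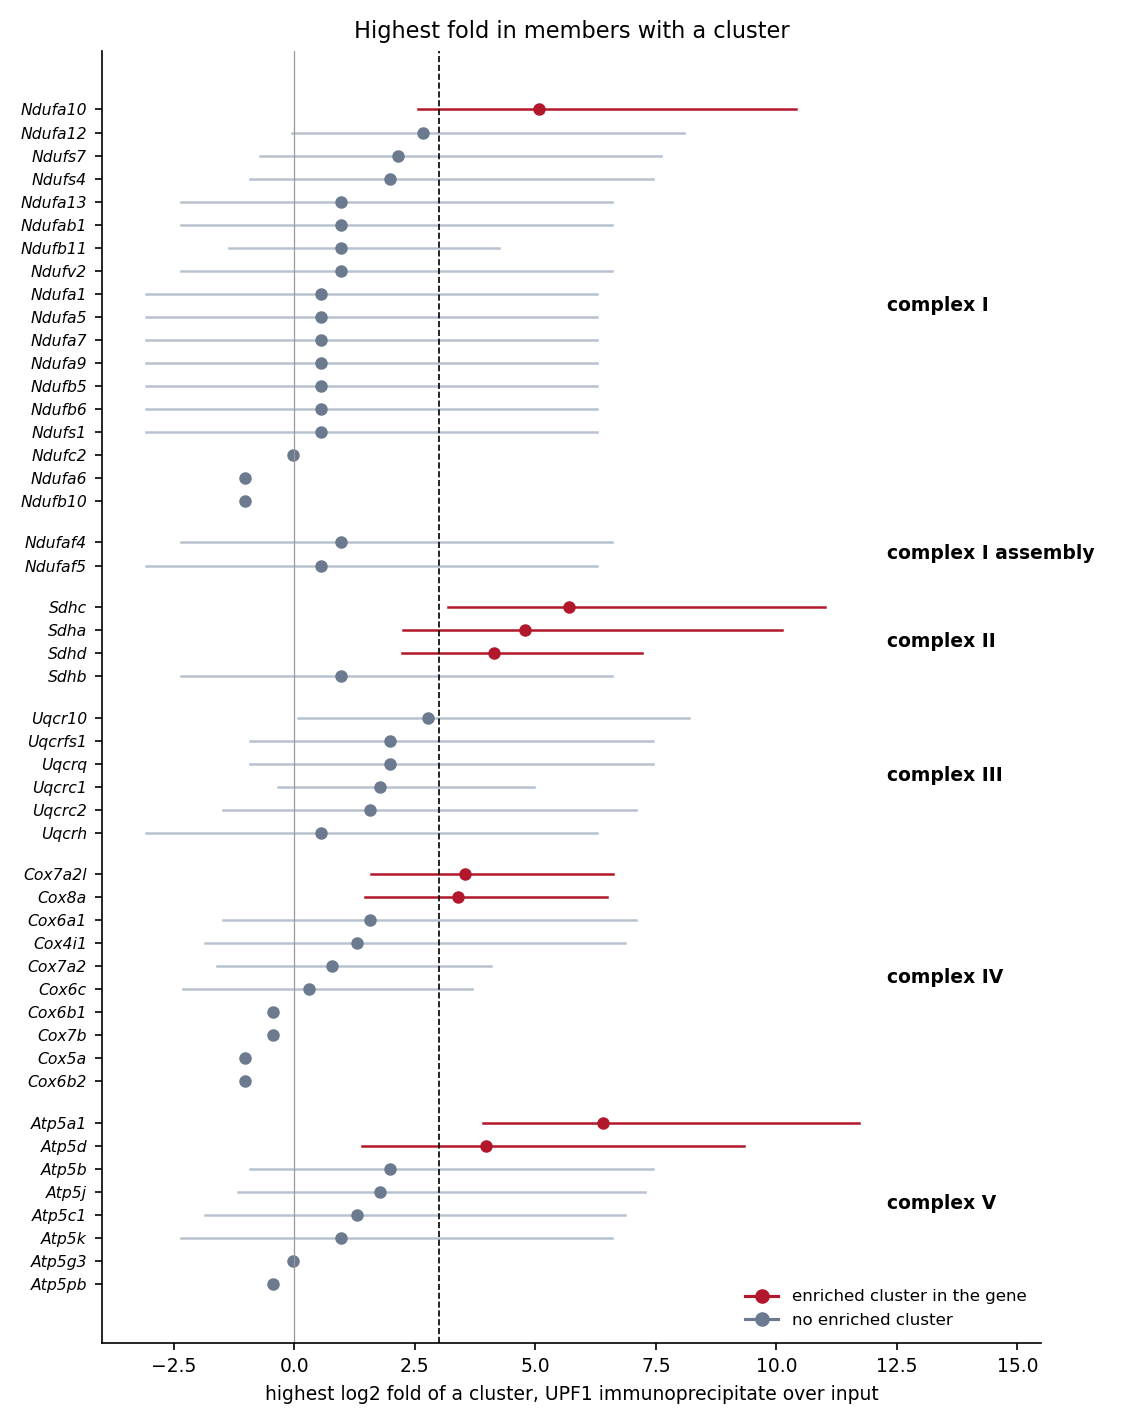
Highest log2 fold of the UPF1 immunoprecipitate over input (x axis) in 48 of the 49 members with a cluster, grouped by complex, with exact 95% counting intervals where reads could be reconstructed. The dashed line marks a log2 fold of 3, and the 8 genes in red, from 3.40 for Cox8a to 6.41 for Atp5a1, had an enriched cluster.

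Complex I, which oxidises NADH, is the largest complex, and few of its genes were called. Of 39 genes, 19 had a cluster. An enriched one was present in 1 (5.26% of the 19, interval 0.935 to 24.6), against 34.0% of all protein-coding genes with a cluster. That gene was Ndufa10, a supernumerary subunit related to nucleoside kinases (chromosome 1, 92439486 to 92473825, minus strand). Its 2 clusters nearest the 3′ end, at 73 and 306 nt, had log2 folds of 5.08 (interval 2.56 to 10.41) and 3.78 (interval 1.19 to 9.14), from 69 and 28 reads against 1. The other 6 clusters of Ndufa10, spread from 12547 to 33873 nt from the end, held 3 to 6 reads and had folds between 0.56 and 1.56.

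None of the 7 nuclear core subunits of complex I, among them those that carry the flavin and the iron-sulfur clusters, had an enriched cluster. Only 4 of the 7 had a cluster at all. The Wilson interval on a count of 0 of 4 includes the 34.0% found over all protein-coding genes with a cluster. Ndufs7, which carries the last iron-sulfur cluster before the quinone, reached 2.15 from 9 reads against 1, at 4331 nt from the 3′ end. Ndufv2 reached 0.98 with 3 clusters and Ndufs1 0.56 with 2. The strand of Ndufs1 was not given by the promoter table, and its distances were left out. Ndufs3, Ndufs8 and Ndufv1 had no cluster.

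Of the 30 supernumerary subunits, 15 had a cluster. Ndufa12 came nearest to a call after Ndufa10, with 13 reads against 1 at 376 nt from the 3′ end and a fold of 2.68 (interval -0.06 to 8.09). Ndufs4, a subunit often mutated in Leigh syndrome, had the most clusters of any member, 11 along a locus of 100300 nt. Its highest fold was 1.98 from 8 reads against 1, and the cluster nearest its 3′ end, at 204 nt, had 0.98. Ndufab1, the mitochondrial acyl carrier protein, had 5 clusters, with a highest fold of 0.98. Ndufa6 and Ndufb10 had 1 cluster each with a fold of -1.02, and Ndufc2 reached -0.02. No cluster was found on Ndufa2, Ndufa3, Ndufa8, Ndufa11, Ndufb1, Ndufb2, Ndufb3, Ndufb4, Ndufb7, Ndufb8, Ndufb9, Ndufc1, Ndufs5, Ndufs6 or Ndufv3, nor on the copies Ndufb4b and Ndufb4c. Among the assembly factors, Ndufaf4 reached 0.98 with 4 clusters and Ndufaf5 0.56 with 1. The other 6, Ndufaf1, Ndufaf2, Ndufaf3, Ndufaf6, Ndufaf7 and Ndufaf8, had none.

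Complex III, the cytochrome bc1 complex, had clusters on 6 of 8 genes, and none was enriched. A count of 0 of 6 genes still allows shares up to 39.0% by the Wilson interval. That range includes the 34.0% of all protein-coding genes with a cluster. Uqcr10, a small subunit, had the highest fold of any member that was not called, 2.78 (interval 0.07 to 8.19) from 14 reads against 1, at 135 nt from its 3′ end. The Rieske iron-sulfur protein Uqcrfs1 and the small subunit Uqcrq both reached 1.98. The core proteins Uqcrc1 and Uqcrc2 reached 1.78 and 1.56. Uqcrh reached 0.56 over 4 clusters, and Uqcrb and Uqcr11 had no cluster.

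Complex IV, cytochrome c oxidase, has several nuclear subunits that exist as isoforms, and in several pairs only 1 isoform had clusters. Of its 20 genes, paralogs included, 10 had a cluster and 2 an enriched one, 20% of the 10 (interval 5.67 to 51.0). That interval includes the 34.0% of all protein-coding genes with a cluster. Cox8a, the ubiquitous form of a small subunit (chromosome 19, 7215158 to 7217616, minus strand), had 1 of 3 clusters enriched, at 153 nt from its 3′ end. There 43 reads against 2 gave a fold of 3.40 (interval 1.46 to 6.49). Cox8b and Cox8c, known from heart and muscle and from testis, had no cluster. Cox4i1, the common form of the regulatory subunit, had 4 clusters with folds of up to 1.30, and Cox4i2 had none. Cox6a1 reached 1.56, and its heart and muscle counterpart Cox6a2 had no cluster. Cox6b1 and its testis counterpart Cox6b2 had 1 cluster each, with folds of -0.44 and -1.02. Cox5a had 2 clusters, both at -1.02, and Cox5b none. Cox6c reached 0.30 and Cox7b -0.44, while Cox7b2, Cox7c and Cox7a1 had no cluster. Ndufa4, a complex IV subunit in spite of its name, and its relative Ndufa4l2 had none.

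Cox7a2l, a relative of Cox7a2 known for joining complexes III and IV into supercomplexes, had an enriched cluster (chromosome 17, 83502224 to 83502416), where 47 reads against 2 gave a fold of 3.53 (interval 1.60 to 6.62). A smaller one at 98 nt from the 3′ end reached 2.30. The value of Cox7a2 itself is uncertain. Its annotated locus (chromosome 9, 79755241 to 79771422) runs into that of Tmem30a, a lipid flippase subunit on the same strand, and 8 clusters lie in both loci. These 8 include 5 enriched ones, with a highest fold of 5.51, and were given to neither gene. The single cluster given to Cox7a2 had a fold of 0.78, and it also lies in the annotated pseudogene Gm51685.

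Complex V makes ATP with a catalytic head, a stalk and a membrane rotor. Clusters lay on 8 of its 17 genes, and 2 genes of the head had an enriched one, 25% of the 8 (interval 7.15 to 59.1). That interval includes the 34.0% of all protein-coding genes with a cluster. Atp5a1, the alpha subunit (chromosome 18, 77773768 to 77782869, plus strand), held the highest fold among all members, 6.41 (interval 3.91 to 11.72) from 173 reads against 1. Directly upstream, 157 reads against 3 gave 4.69 (interval 3.11 to 6.98). The pair covers 317 nt and ends within the last 100 nt of the locus. Atp5d, the delta subunit, had 32 reads against 1 in a cluster at 118 nt from its 3′ end, a log2 fold of 3.98 (interval 1.39 to 9.32). Atp5b, the beta subunit that carries the catalytic sites beside Atp5a1, reached 1.98 from 8 reads against 1 at 228 nt from its 3′ end. Atp5c1, the gamma subunit, had 7 clusters with folds of up to 1.30. One of these held 25 reads against 6, the most reconstructed immunoprecipitate reads of any member that was not called, and its fold was 1.03. The interval around that fold was -0.29 to 2.61, which lies below the 3.91 to 11.72 of Atp5a1. The positions are unlike, 12070 nt from the 3′ end in Atp5c1 and 151 nt in Atp5a1. Over all protein-coding genes 1.62% of clusters 10000 to 20000 nt from the end were enriched, against 36.1% in the last 1000 nt. Nearest the end of Atp5c1, at 117 nt, 3 reads against 1 gave 0.56. The intervals around the highest folds, -0.92 to 7.45 for Atp5b and -1.86 to 6.86 for Atp5c1, overlap that of Atp5a1. Atp5e, the small subunit of the head, had no cluster.

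In the stalk and the membrane part of complex V no gene was called. Only 2 of 4 stalk genes and 2 of 8 membrane genes had a cluster. A count of 0 of 2 allows shares up to 65.8% by the Wilson interval. Atp5j, a coupling factor of the stalk, reached 1.78 with 5 clusters and Atp5pb -0.44, while Atp5h and Atp5o had none. Of the 3 genes for the rotor ring protein, subunit c, Atp5g3 had 3 clusters, none above -0.02, and Atp5g1 and Atp5g2 had none. Atp5k reached 0.98 with 5 clusters, and Atp5j2, Atp5l, Atp5md and Atp5mpl had none.

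**Figure D3:**
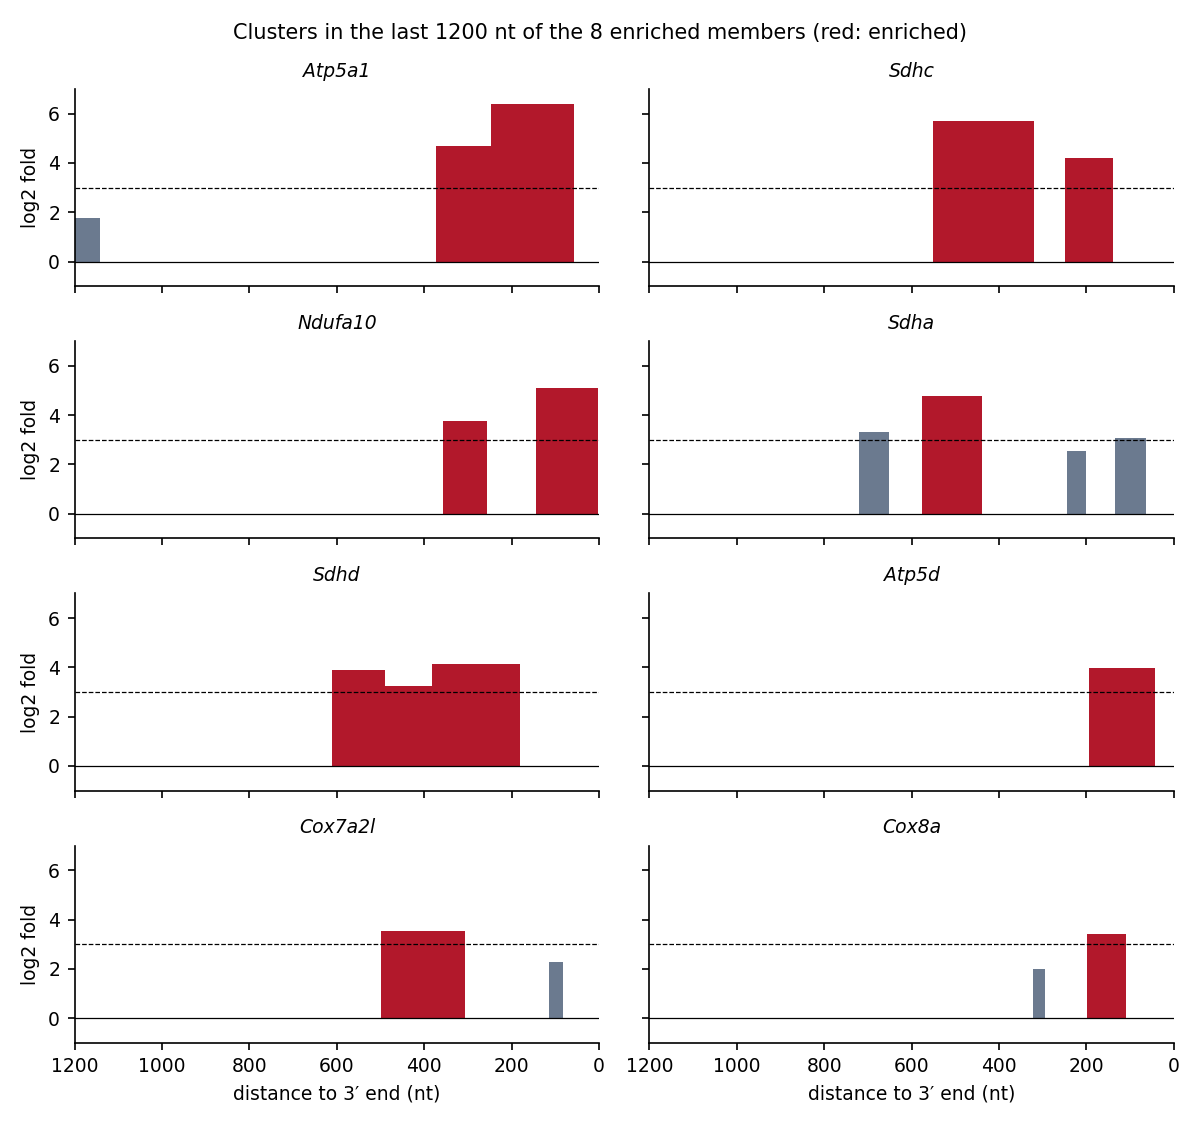
Clusters in the last 1200 nt of the 8 members with an enriched cluster. The x axis is the distance to the 3′ end of the locus in nt, the y axis the log2 fold over input, and each block spans the width of 1 cluster. Red blocks were enriched, grey ones were not, and the midpoints of the red blocks lie 73 to 550 nt from the end.

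All 13 enriched clusters of the members lay near the 3′ end of the locus, with midpoints 73 to 550 nt from it and a median of 306 nt. They were 90 to 231 nt wide and together covered 1904 nt of the 10342 nt in members' clusters. They held 28 to 173 immunoprecipitate reads, with a median of 56, where the clusters that were not enriched and could be reconstructed held a median of 4. In the last 1000 nt, 13 of 45 clusters of the members were enriched (28.9%), against 36.1% over all protein-coding genes. Between 1000 and 2000 nt none of 13 was, which allows a share of up to 23.1%, and between 2000 and 5000 nt none of 30, which allows up to 10%. Over all protein-coding genes those shares were 40.2% and 28.3%. Distances are genomic and include introns, exons could not be told from introns, and whether the transcripts of the members end sooner than others was not tested. In 6 members the cluster nearest the 3′ end was an enriched one. In Sdha weaker clusters at 98 and 221 nt lay between the enriched cluster and the end, and in Cox7a2l a weaker one at 98 nt.

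**Figure D4:**
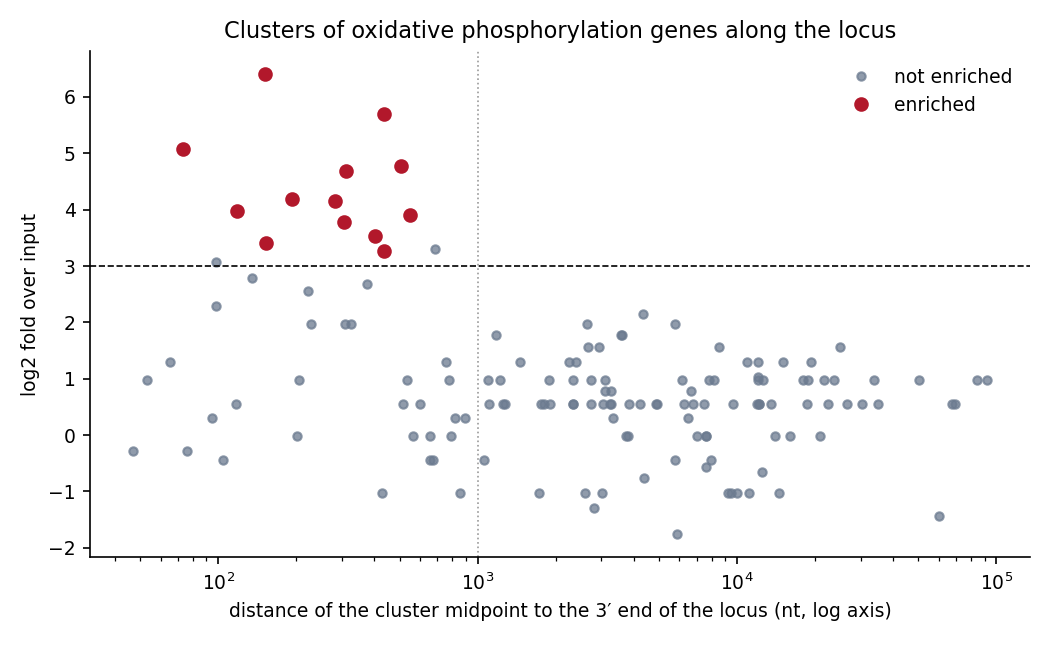
Log2 fold over input (y axis) of each cluster of the members whose strand is known, against the distance of its midpoint to the 3′ end of the locus (x axis, log scale). The 13 enriched clusters, in red, all lie left of the dotted line at 1000 nt, and farther away the folds stay at or under 2.15.

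The 5′ ends held clusters too. Within 500 nt of the 5′ end of the locus 18 clusters were found in 16 members, with 0 enriched. At 18 clusters a share as high as 16.7% could go unseen. Over all protein-coding genes 2.30% of such clusters were enriched, so the count of 0 is near the background. Their log2 folds ran from -1.76, in Cox4i1, to 1.98, in Uqcrq, with a median of 0.43. In 3 ATP synthase genes a cluster began shortly after the start of transcription in the RefSeq promoter table, and part or all of its sequence can be read there. They are shown as examples of clusters without enrichment near a start site. The start of Atp5g3 in that table lies inside its annotated locus, and its cluster, 1195 nt from the outer end, is not among the 18. The bases of Atp5k were read in the promoter window of Gm34319, a locus on the other strand, and turned to the strand of Atp5k. Each line gives 30 bases, 5′ to 3′ on the strand of the RNA, with the bases inside the cluster in capitals (RefSeq, GRCm38.p6).
Atp5b, chr10:128083327-128083356, plus strand: atgttgagtctTGTGGGGCGTGTGGCCTCG
Atp5g3, chr2:73911277-73911306, minus strand: gcgcccagccccactgcTTCGACCTCTGCC
Atp5k, chr5:108434326-108434355, minus strand: CCCCCGGTTCAGGTCTCTCCACTCATCAAG
The Atp5b cluster began 32 bases from the start site, counted from 1 at the first transcribed base, and had a log2 fold of -0.02. In Atp5g3 the cluster began at base 38 with a fold of -1.29, and in Atp5k it covered bases 45 to 74 with a fold of 0.98. Of the 30 bases shown, 18 are G or C in Atp5b, 22 in Atp5g3 and 18 in Atp5k. The sequences of the enriched clusters at the 3′ ends are not printed, since no genome sequence was used here.

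The 41 members with clusters but no enriched one held few reads where counts could be reconstructed. In 9 of them the highest log2 fold was at or below 0, in 18 between 0 and 1, in 11 between 1 and 2, and in 3 above 2. Of these genes, 9 had a highest fold of exactly 0.56, the value of 3 reads against 1, and 16 had a single cluster. The most reads in any 1 cluster had a median of 6 over the 32 of these members with a reconstructed cluster. With so few reads a moderate enrichment would not have been detectable. The 9 members with no fold above 0 have no reconstructed reads, so their depth is not known. The 8 genes with an enriched cluster had loci of 2459 to 34340 nt (median 10759.5), against 1154 to 100300 nt (median 8396) for the 41 genes with clusters only and 471 to 106064 nt (median 5716) for the 47 genes with none. The 3 ranges overlap widely. Of the 47, Ndufc1 and Atp5g1 had clusters outside any locus within 1000 nt beyond their annotated 3′ ends. The pair beyond Ndufc1 had folds of 1.56 and 0.56, and the single one beyond Atp5g1 had 0.56. Many oxidative phosphorylation genes have processed pseudogenes, and reads that fit several copies may be lost or misplaced. The sources used here do not say how such reads were treated. The annotation names 19 pseudogenes or pseudogene-like loci after members, none of which had a cluster. Of the 10 members with such a namesake, 6 had clusters and none an enriched one. Those 6 are too few to set against the 34.0% of all protein-coding genes with a cluster. Pseudogenes under other names, such as Gm51685, were not counted, and loss of reads to copies was not tested.

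Neighbouring gene groups were described in the same way. Of the 16 enzymes of the citric acid cycle and pyruvate dehydrogenase, to which the Sdh genes supply a further step, all had clusters and 9 had an enriched one (56.2%, interval 33.2 to 76.9). The interval just includes the 34.0% found over all protein-coding genes with a cluster. Dlst and Ogdh, components of the 2-oxoglutarate dehydrogenase complex, reached 6.31 and 4.88, citrate synthase Cs 5.76 and pyruvate dehydrogenase alpha Pdha1 5.26. Fumarase Fh1 and malate dehydrogenase Mdh2 had highest folds of 0.98 and 0.56. These enzymes had a median of 4.5 clusters per gene, and genes with as many clusters had an average share of 29.5%. Of 45 further assembly factors of the complexes, 34 had clusters and 8 had an enriched one (23.5%, interval 12.4 to 40.0), where genes with as many clusters averaged 17.3%. The 8 enriched ones included Coa5 at 5.34 with 12 of 14 clusters enriched, Cox10 at 5.32, Cox15 at 4.59, Uqcc1 at 4.50 and Sdhaf2, which inserts the flavin of Sdha, at 4.40. Of the electron carriers and subunits outside the rule, Cyc1, Cycs, Cyct and Dmac2l, 3 had clusters and none an enriched one.

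Other sets of housekeeping genes gave a range of shares. Mitochondrial ribosomal protein genes had an enriched cluster in 7 of 49 genes (14.3%, interval 7.10 to 26.7), with Mrps17 highest at 5.58, and genes with as many clusters averaged 11.7%. Cytosolic ribosomal protein genes had 1 of 64 (1.56%, interval 0.276 to 8.33), which was Rpl22 at 5.19, and genes with as many clusters averaged 19.1%. Proteasome subunit genes had 6 of 24 (25%, interval 12 to 44.9), with Psmd11 at 6.0 and Psma3 at 5.63, and genes with as many clusters averaged 21.2%. The median of the highest fold was 0.98 in the oxidative phosphorylation genes, against 1.56 in mitochondrial ribosomal, 0.98 in cytosolic ribosomal and 1.30 in proteasome genes. With 1 library of each kind the differences between these lists were not tested. Among regulators of mitochondrial gene expression, 3 of 9 genes with clusters had an enriched one, where genes with as many clusters averaged 43.3%. The 3 enriched ones were Esrra at 4.50, Gabpa at 4.44 and Nrf1 at 4.37. Gabpa and Nrf1 are transcription factors known to bind promoters of many oxidative phosphorylation genes. Cluh, which binds mRNAs of mitochondrial proteins, had 6 of 13 clusters enriched and reached 5.04.

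**Figure D5:**
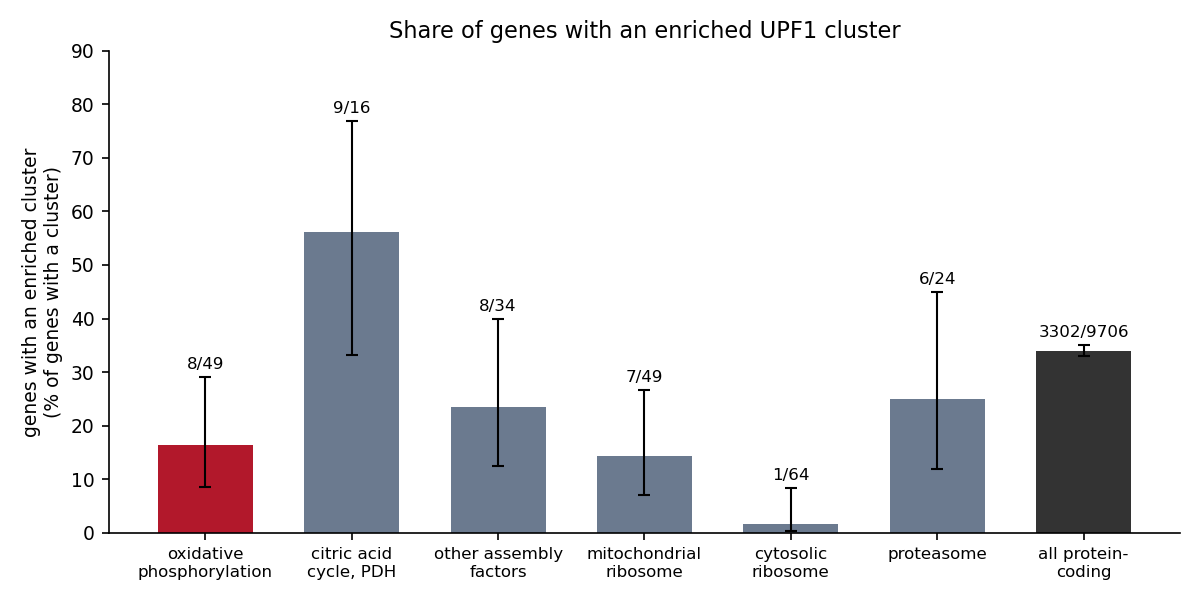
Share of genes with an enriched UPF1 cluster, in percent of the genes with a cluster (y axis), for oxidative phosphorylation genes, 5 other gene lists and all protein-coding genes. Bars carry Wilson 95% intervals, and the numbers above them are genes with an enriched cluster over genes with a cluster, from 8/49 for oxidative phosphorylation to 3302/9706 for all genes.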

How the data were processed

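The file lists clusters of the immunoprecipitate with a log2 fold over input and a −log10 p, both as deposited. It has no header, so both units were read from the values and the direction of the fold is the usual one, immunoprecipitate over input. UMI-tools, cutadapt, STAR and the build mm10 are named in the submitters' processing notes. The sources used here name no cluster caller, no formula for the fold and no treatment of reads with several matches. The deposited −log10 p lies between 0 and 400, where it is capped.

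Clusters were joined to RefSeq loci (GRCm38.p6) with Python 3.11.15, pandas 2.3.3 and scipy 1.17.1. The strand of 78 members came from the RefSeq promoter table and that of 7 from at least 80% of their own clusters (2 or more). For 11 it stayed unknown, and 1 of those had clusters. A cluster went to the locus of its strand that covered most of its bases, with ties to the only protein-coding locus or to none. This placed 121511 clusters. All 111 clusters that lay in a single member locus of known RefSeq strand were on that strand.

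Read counts were sought so that fold and p matched whole numbers, with the immunoprecipitate at 2.03 times the reads of the input, a −log10 p within 0.05 or 1%, an exact binomial test below 5 reads and a chi-square test above. They were found for 90006 of 90350 clusters with a fold above 0 and for all 109 of the members. The library totals are not in the list. Intervals on folds are exact Clopper-Pearson and those on shares Wilson, both at 95%, and a share of 0 is given with the limit of 3 counts. Every member is counted, those with an enriched cluster and the highest and lowest others are described with values, and isoforms are named whatever their values. Ribosomal protein genes leave out kinases and paralogs that share the letters. The members, lists and thresholds were chosen with earlier results of these data known. The values of 1 member with clusters and of 1 other gene are counted but not reported here.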

Additional observations from a re-analysis of the deposited data

Results flagged for a closer look

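Signal lay in clusters that the counts of the members in the report leave out, though counting any overlap on the strand includes them. In the stretch shared by the loci of Cox7a2 and Tmem30a, 5 enriched clusters were given to neither gene. Their log2 folds were 3.73, 5.51, 3.88, 3.56 and 3.56, the highest from 93 immunoprecipitate reads against 1 input read. They lie between 79770018 and 79770927 on chromosome 9, at the 5′ side of the annotated Cox7a2 locus, and which of the 2 RNAs they come from was not tested.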

How the results depend on the processing

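The count of 8 members with an enriched cluster, and the 13 clusters behind it, stayed within 1.5 times of these values when the fold threshold was lowered to 2, the −log10 p threshold raised to 5, touching clusters merged, strands ignored, only clusters in 1 locus kept, or any overlap on the strand counted. The last setting added Cox7a2 (9 members, 18 clusters, and 34.0% of all protein-coding genes with a cluster), and the −log10 p threshold of 5 left 7 members (26.1% of those genes). The fold threshold of 2 could add no member, because no other cluster given to a member reached a −log10 p of 3. With a log2 fold of at least 4, 5 members and 7 clusters were left, without Cox7a2l, Cox8a and Atp5d, and 24.4% of all protein-coding genes with a cluster. Without calls that rest on a single input read, 4 members and 6 clusters were left (Atp5a1, Sdhd, Cox7a2l and Cox8a), and 21.7% of all protein-coding genes with a cluster. Atp5d was the member not called at a −log10 p of at least 5. The median highest fold of 0.98 was 4.46 when only clusters with a −log10 p of at least 3 were used, which leaves 8 genes (4.44 over all protein-coding genes). It was 0.65 with length-weighted mean folds, and 0.98 under each overlap rule, with merged clusters and without genes that are not subunits. Apart from that −log10 p limit of 3, the thresholds on fold, p and input do not enter this median and were not varied for it. Mitochondrial ribosomal genes had 4 enriched members with a fold of at least 4. No paired analysis was possible because there is 1 library of each kind. Low read counts limit the folds, whose intervals span several log2 units.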
